A study of Mus musculus with 11 samples.

Results

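The 2 cultured samples of the series, mammosphere cells and the Comma Dβ line, were compared with all 9 samples of freshly sorted mammary epithelial cells, to describe what the cultured cells share. A gene was counted as a shared difference when both cultured libraries lay above, or both lay below, all 9 primary libraries on the scale of log2 CPM (read counts scaled to a common library size) after scaling by the trimmed mean of M values (TMM). Of 15881 genes with over 0.5 CPM in at least 2 of the 11 libraries, 1671 lay above and 1538 lay below, 3209 in all. A gene can pass this filter through the 2 cultured libraries alone, and its place above is then set by the filter. With over 0.5 CPM required in at least 3 libraries, 1564 lay above and 1500 below. The primary cells were sorted from mammary glands of wild type virgin FVB/N females of 8 weeks, after removal of cells bearing CD31, TER-119 or CD45. MaSC/basal cells (CD24+CD29hi) hold mammary stem cells and myoepithelial cells, LP cells (CD24+CD29loCD61+) are enriched in luminal progenitors, and ML cells (CD24+CD29loCD61-) in mature luminal cells, with 3 libraries each. Mammospheres were grown for a week from sorted MaSC/basal cells of the same strain, without attachment, in medium with EGF, bFGF, insulin, hydrocortisone and B27. Comma Dβ (CommaD-βGeo in the labels) is an established line derived from mid-pregnancy Balb/c mammary epithelium, so it is a single line and differs from the primary cells in strain as well as in culture. Each cultured sample is 1 library, and neither culture was repeated. The sphere and the line share growth outside the animal but not medium, attachment, strain or time in culture, and these cannot be told apart here. All 9 primary libraries came from freshly dissociated and sorted cells, whereas no sorting after culture is described. This handling and culture cannot be told apart either.

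Cells in culture divide under the control of the medium and leave the hormones, neighbouring cells and basement membrane of the gland behind. Immediate early genes are switched on within minutes by growth factors or stress and need no new protein. Cholesterol synthesis is set by the sterol-sensing SREBP factors, and class I antigen presentation by interferon-responsive factors and the transactivator Nlrc5. In the gland, prolactin acts through Stat5 and progesterone through its receptor to drive alveolar development and milk protein expression.

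Between 19958838 and 75795034 reads were counted per library, 38388464 in the mammosphere and 24285202 in the Comma Dβ library. One MaSC/basal library, replicate 1, was submitted under a name that contains p53 although its labels give wild type, and without it 1739 genes lay above and 1624 below. The name given to the mammosphere library joins a pair of codes, which could mean that cultures were pooled. According to the labels the mammosphere library belongs to batch 1 with replicate 1 of each sorted population, and Comma Dβ to batch 3 with LP and ML replicate 3. TMM factors were higher in the cultured libraries (1.16 and 1.21) than in the primary ones (0.862 to 1.03). Without them the median log2 difference of all genes moved up by 0.30, and 2778 genes lay above and 922 below, 75.1% of the shared genes above in place of 52.1%. Comparing each culture with the primary libraries of its own batch alone, 2438 lay above and 2389 below.

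Basal and luminal keratins and *Epcam* were detected in both cultures. The basal keratin *Krt14* was at 4121, 4919 and 4641 CPM in MaSC/basal libraries, 2017 in mammospheres and 459 in Comma Dβ, against 16.3 to 110 in luminal libraries. The luminal keratin *Krt8* was at 303 to 405 CPM in MaSC/basal and 3711 to 4824 in luminal libraries, 780 in mammospheres and 16.3 in Comma Dβ. *Epcam*, an epithelial adhesion molecule, was at 506 to 2731 CPM in primary cells, 710 in mammospheres and 87.97 in Comma Dβ. *Krt8* and *Epcam* were thus lower in the line than in any primary library, and inside the primary range in mammospheres. *Itga6*, an integrin subunit of basal cells, was the 1 member of 22 basal genes below all 9 primary libraries, whereas 19 of the 22 lay below the MaSC/basal libraries taken alone.

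A quasi-likelihood test of edgeR, with 1 mean for both cultures against the average of the 3 populations, called 3604 genes higher in culture (22.7% of genes tested) and 2355 lower (14.8%) at an adjusted p under 0.05. The shared genes were fewer, with 10.5% of genes above and 9.68% below, since the cultures must clear every population. Of the 1671 genes above, 1567 were called higher, and of the 1538 below, 1402 were called lower. These p-values rest on the same libraries that chose the genes and measure only the spread between libraries. A further 2037 genes were called higher without clearing all 9 primary libraries, and 953 were called lower. Gaps to the nearest primary library were mostly small, with a median of 0.34 (log2) above and 0.37 below, and reached 1 for 290 genes above and 297 below. At the edge, *Nrde2* was counted as above with 19.35 CPM in mammospheres and in the highest primary library and 23.4 in Comma Dβ, and *Wdr24* was not, with 31.15 CPM in mammospheres against 31.16. *Numa1* was counted as below with 283.3 CPM in mammospheres against 283.4 in the lowest primary library, and *Cnga3* was not, with no reads in either culture and none in LP replicate 3.

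**Figure D1:**
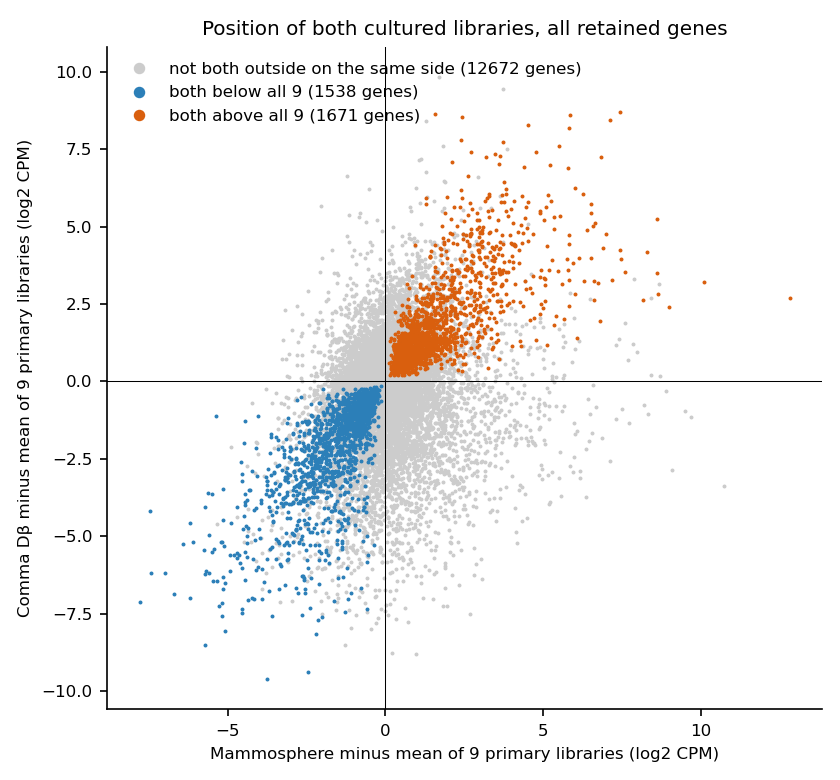
Each point is a retained gene, placed by the difference of the mammosphere library (x axis) and of the Comma Dβ library (y axis) from the mean of the 9 primary libraries, in log2 CPM. The 1671 genes with both cultures above all 9 primary libraries are orange and the 1538 with both below are blue. Grey points include 413 genes with mammospheres above and Comma Dβ below all 9, and 436 with the reverse.

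The 12 genes with the widest gaps above, among those with at least 5 CPM in both cultures, ranged from secreted factors and receptors to enzymes and chromatin proteins. *Grem1* (chr2:113748675-113758648, GRCm38), a secreted BMP antagonist, had a median of 0.0567 CPM in primary libraries, with no reads in 3 of them and 0.339 at most, against 21.97 in mammospheres and 52.99 in Comma Dβ. Its log2 fold change was 9.13 ± 0.72 (SE; edgeR adjusted p = 4.51e-05). *Grem1* passed the filter of 0.5 CPM through the cultures alone, so its place above was set by the filter. These 12 genes were chosen for their gap in the same libraries, so their p-values give no separate support. The test also treats the unlike cultures as replicates of the same group. *Hmga2* (chr10:120361268-120476469), a chromatin protein of embryonic and tumour cells, was at 0.141 to 1.75 CPM in primary libraries (median 0.274), 63.6 in mammospheres and 160.9 in Comma Dβ (8.10 ± 0.32, adjusted p = 3.9e-06). *Crabp1*, which binds retinoic acid in the cytoplasm, was at 0.752 CPM at most in primary cells and at 23.1 in mammospheres and 27.0 in Comma Dβ. *S100a4*, a calcium-binding protein of motile cells and fibroblasts, rose from 0.719 to 4.398 CPM in primary cells to 100.7 in mammospheres and 684.6 in Comma Dβ (7.78 ± 0.53, adjusted p = 2.44e-05). *Il1rl1*, the receptor of interleukin 33, was at 4.43 CPM at most in primary cells, 65.2 in mammospheres and 338.7 in the line.

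The other genes of the 12 covered matrix enzymes, membrane receptors and a transcription factor. *Lox*, which cross-links collagen, was at 1.49 to 11.1 CPM in primary libraries and at 199.6 and 434.6 in mammospheres and Comma Dβ. *Mmp10*, a stromelysin, was higher in mammospheres than in the line, with 107.5 CPM in mammospheres and 10.5 in Comma Dβ against 0.564 at most in primary cells. *Twist2*, a bHLH factor of mesenchyme, was at 0.601 CPM at most in primary cells and at 10.2 and 18.8 in culture. *Colec12*, a scavenger receptor with a collagen-like domain, was at 70.6 and 80.3 CPM against 4.61 at most. *Megf10*, an engulfment receptor, was at 25.4 and 34.0 CPM against 1.38 at most. *Ddah1*, which degrades methylated arginine, was at 20.3 and 28.0 CPM against 1.22 at most, and *Ccdc9b* at 34.4 and 50.9 against 2.33.

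The 12 genes with the widest gaps below, among those with at least 5 CPM in all 9 primary libraries, included feedback inhibitors, receptors, transcription factors and secreted proteins. *Cish* (chr9:107296659-107302784), a feedback inhibitor that Stat5 induces, was at 61.8 to 188.8 CPM in primary libraries with a median of 113, against 3.95 in mammospheres and 2.41 in Comma Dβ. It fell by 5.30 ± 0.50 on the log2 scale (SE; edgeR adjusted p = 9.59e-05). These 12 genes too were chosen for their gap, so their p-values give no separate support. *Nr3c2*, the mineralocorticoid receptor, was at 20.5 to 50.8 CPM in primary cells and at 1.53 and 0.611 in culture (-5.14 ± 0.36, adjusted p = 2.48e-05). *Atf3* (chr1:191170296-191183333), a stress-induced bZIP factor, was at 538.6 to 3495 CPM in primary cells and at 19.8 and 44.2 in culture (-5.84 ± 0.75, adjusted p = 0.000412). *Csn1s2a*, a casein, was highest in LP cells (862 to 5541 CPM), 9.94 to 282 in other primary libraries and below 1 CPM in both cultures (0.426 and 0.713).

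The same set held several signalling and transcription genes. *Ikzf4*, an Ikaros family factor, was at 17.8 to 95.4 CPM in primary cells and at 1.15 and 0.51 in culture. *Tox2*, an HMG-box factor, was at 9.86 to 124.8 CPM against 0.808 and 0.17, and *Fzd10*, a Wnt receptor, at 6.43 to 98.7 against 0.516 and 0.034. Both were highest in ML cells. *Arl4d*, a small GTPase, was at 88.7 to 259.9 CPM against 7.70 and 3.63, and *Rasd1*, a Ras-related protein inducible by dexamethasone, at 25.8 to 142.3 against 2.47 and 1.36. *Ggt1*, the glutathione-cleaving transferase, was at 27.7 to 160.1 CPM against 3.59 and 0.476. *Fgg*, the fibrinogen gamma chain, was at 50.9 to 1849 CPM against 6.67 and 2.96, and *Fhad1* at 10.5 to 66.0 against 1.19 and 0.136.

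**Figure D2:**
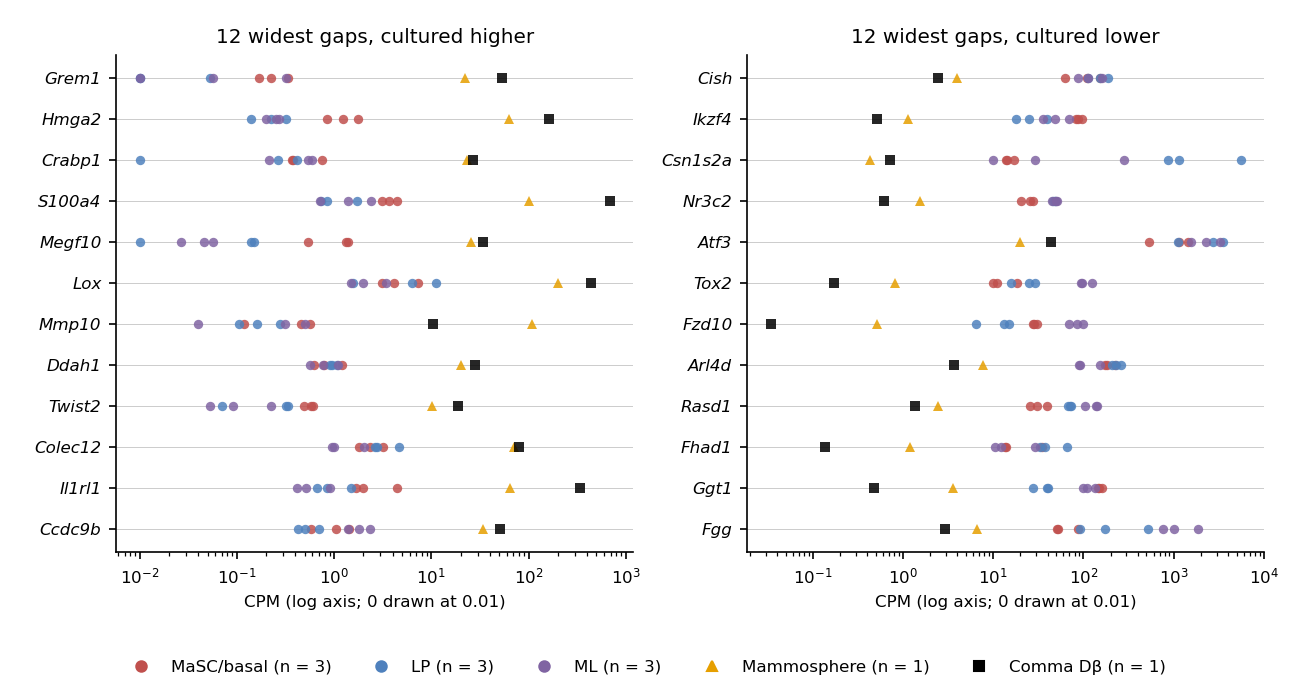
CPM in each of the 11 libraries (x axis, log scale, 0 drawn at 0.01) for the 12 genes with the widest gap above (left) and below (right) among genes with at least 5 CPM in every library of the higher side. Circles are primary libraries coloured by population, triangles mammospheres and squares Comma Dβ. The genes were chosen for the gap between cultured and primary libraries. Mammosphere and Comma Dβ values lie closest together for *Crabp1* and *Colec12*.

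Immediate early genes were the gene list with the largest share below, with 26 of 29 members below all 9 primary libraries (89.7%, against 9.68% of all genes) and none above. The edgeR test also called 26 members lower, against 14.8% of all genes. In that test *Nr4a1* was not called although below (adjusted p = 0.1), and *Egr3* was called although not below all 9. The median log2 fold change of the list was -2.92 against 0.08 for all genes. *Fos* was at 1026 to 6505 CPM in primary libraries (median 3996), 101.4 in mammospheres and 330.1 in Comma Dβ (-4.17 ± 0.72, adjusted p = 0.00185). *Fosb*, its relative, was at 1537 to 7608 CPM against 22.8 and 220.5 (-5.12 ± 0.93, adjusted p = 0.00246). The partner gene *Jun* was at 614 to 4085 CPM against 181.7 and 277.4, and *Egr1*, a zinc finger factor, at 681 to 3503 against 78.4 and 442.6. *Zfp36*, which speeds the decay of AU-rich mRNA, was at 569 to 2734 CPM against 69.9 and 125.8, and *Nr4a3*, an orphan nuclear receptor, at 12.9 to 196.3 against 0.988 and 1.87. The members that did not clear all 9 libraries were *Egr2*, *Egr3* and *Nr4a2*, and all 29 members lay below the MaSC/basal libraries taken alone. *Egr2* was at 62.6 CPM in mammospheres and 10.8 in Comma Dβ against 30.5 to 660.3 in primary cells, and *Nr4a2* at 4.83 and 44.5 against 8.71 to 164.5. The summed level of the list was 13200 to 50800 CPM in primary libraries, 2750 in mammospheres and 3870 in Comma Dβ, so it also varied widely among the freshly sorted cells. Fresh dissociation and sorting of the primary cells cannot be told apart from culture for this list.

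Part of the genes of hormone and growth factor response were also low in both cultures. Of 23 genes of steroid and prolactin signalling, 6 lay below all 9 primary libraries (26.1%, against 9.68% of all genes) and none above. These were *Cish*, *Nr3c2*, *Cited1*, *Stat5a*, *Pgr* and *Wnt4*. The receptors *Esr1*, *Prlr* and *Ghr* were not among them. On the log2 CPM scale *Esr1* was at 1.478 in mammospheres, 3.622 in Comma Dβ and 3.49 to 7.664 in primary libraries. *Prlr* was at 6.559 and 2.981 against 4.354 to 12.236, and *Ghr* at 5.317 and 6.118 against 5.127 to 5.915. *Stat5a* was at 80.98 to 261.7 CPM in primary cells and at 29.7 and 20.55 in culture (-2.43 ± 0.19, adjusted p = 4.08e-05). *Pgr*, the progesterone receptor, was at 19.99 to 118.3 CPM in MaSC/basal and LP libraries, 300.3 to 526.2 in ML libraries, 7.03 in mammospheres and 10.8 in Comma Dβ. *Cited1*, a transcriptional coactivator of estrogen-responsive cells, was at 3.70 CPM or more in every primary library and under 1 CPM in both cultures (0.741 and 0.917). Among 20 milk and secretory genes 4 lay below, namely *Csn1s2a*, *Csn2*, *Btn1a1* and *Lalba*. Their lowest primary values, in MaSC/basal or ML libraries, were 9.94, 16.14, 13.3 and 5.599 CPM, against 4.76 CPM at most in culture. With the MaSC/basal libraries alone as reference, 4 of the 20 lay above and 5 below. The summed level of the 20 was 2300 to 3090 CPM in MaSC/basal libraries and 5190 to 92300 in luminal libraries. It was 17600 in mammospheres and 4950 in Comma Dβ.

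Of 16 glucocorticoid-responsive genes 6 lay below (37.5%, against 9.68% of all genes) and none above. The edgeR test called 8 lower (against 14.8% of all genes) and 2 higher (against 22.7%). Hydrocortisone was present in the mammosphere medium. The summed level of this list was 8100 to 15400 CPM in primary libraries, 8880 in mammospheres and 1180 in Comma Dβ, so the mammosphere sum lay inside the primary range. *Angptl4* was at 154 to 493 CPM in primary cells and at 29.3 and 17.3 in culture, *Per1* at 301.7 to 1169 against 118.6 and 61, and the metallothionein *Mt1* at 663 to 1805 against 376 and 112. *Errfi1*, *Sgk1* and *Mt2* made up the rest. *Fkbp5* lay inside the primary range in both cultures (7.468 and 6.129 log2 CPM against 4.21 to 7.54). *Tsc22d3* did so in mammospheres alone (6.92 and 3.15 against 4.611 to 7.818). Of 29 ligands, receptors and feedback genes of the EGF and FGF pathways 7 lay below (24.1%, against 9.68% of all genes) and none above. *Fgfr2*, a receptor of the FGF family, was at 144.6 CPM or more in primary cells and at 34.3 and 22.6 in culture (-3.76 ± 0.40, adjusted p = 0.000164). *Hbegf*, an EGF receptor ligand, was at 162.5 to 547 CPM against 56.6 and 52.2, and *Errfi1*, a feedback inhibitor of the EGF receptor, at 1059 to 3327 against 320.8 and 131.2. *Erbb4* was at 4.79 to 22.3 CPM in luminal cells but at 0.62 or less in MaSC/basal cells, so its gap of 0.48 (log2) to the cultures rests on low values.

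Antigen presentation genes were the list with the second largest share below. Of 21 members 13 lay below all 9 primary libraries (61.9%, against 9.68% of all genes) and none above. The list's median log2 fold change was -1.88, and 15 members were called lower (against 14.8% of all genes). *Tap1*, a subunit of the peptide transporter, was at 42.9 to 89.9 CPM in primary libraries (median 75.7), 14.9 in mammospheres and 17.1 in Comma Dβ (-2.09 ± 0.17, adjusted p = 4.53e-05). *Nlrc5*, the transactivator of class I genes, was at 10.5 to 158.0 CPM against 1.89 and 2.51 (-3.69 ± 0.65, adjusted p = 0.00204). *B2m*, the light chain of class I molecules, was at 348 to 801 CPM against 301.6 and 217.1, and *H2-K1*, a heavy chain, at 463 to 878 against 255.4 and 120.4. *Cd74*, the invariant chain of class II, was at 1.73 to 20.4 CPM against 0.449 and 0.51. Class II transactivator *Ciita* did not clear the primary range (0.267 to 1.82 CPM, 0.584 and 0.51 in culture). Class I heavy chains are highly polymorphic and similar to each other, and Comma Dβ comes from another strain than the primary cells. Strain and culture thus cannot be told apart in the line for *H2-K1*, *H2-D1* and the other H2 genes below, *H2-Q4*, *H2-Q7*, *H2-Aa* and *H2-DMb1*. *Irf1*, *Irf7* and *Irf9*, factors of interferon response, also lay below. *Irf7* did so by a gap of 0.013 (log2), with its call lost under the batch block (-0.45), without TMM scaling (-0.27) and on leaving out any primary library but LP replicate 3 (-0.6 to -0.54). In contrast, 6 interferon-stimulated genes lay above (*Ifit1*, *Ifit2*, *Ifit3*, *Mx1*, *Mx2* and *Ifi44*). *Ifit3* was at 1.31 CPM at most in primary cells and at 3.66 and 4.11 in culture, and *Irf9* at 54.9 to 130.5 against 24.9 and 25.5. For 33 such genes that makes 6 above (18.2%, against 10.5% of all genes) and 3 below (9.09%, near the 9.68% of all genes). The summed level of the 33 was 650 CPM in mammospheres, 1010 in Comma Dβ and 887 to 1160 in primary libraries.

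Cholesterol synthesis and uptake was the list with the largest share above, with 13 of 25 members above all 9 primary libraries (52%, against 10.5% of all genes) and none below. The edgeR test called 21 members higher (against 22.7% of all genes) and none lower, and the median log2 fold change was 1.41. *Msmo1* (chr8:64718123-64733578), a sterol methyl oxidase, was at 16.2 to 58.9 CPM in primary libraries (median 30.3), 195.6 in mammospheres and 231.3 in Comma Dβ (2.77 ± 0.26, adjusted p = 9.33e-05). *Dhcr7*, the reductase of the last step, was at 9.26 to 19.6 CPM against 43.1 and 101 (2.25 ± 0.23, adjusted p = 0.000125). *Lss*, the cyclase that makes lanosterol, was at 14.6 to 24.4 CPM against 46.0 and 113.9, and *Nsdhl*, a demethylation enzyme, at 16.7 to 23.9 against 39.8 and 88.4. *Idi1*, the isopentenyl diphosphate isomerase, was at 4.70 to 10.2 CPM against 14.1 and 27.3. Comma Dβ was higher than mammospheres for each of these 5 genes, and the summed level of the list was 1120 to 1710 CPM in primary libraries, 1760 in mammospheres and 3810 in Comma Dβ. *Srebf2*, the sterol-responsive factor, was at 176.4 and 416.8 CPM against 289 to 380.7, on opposite sides of the primary range.

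Promoters of the cholesterol genes often held a CCAAT box, the letters CCAAT on either strand, which the factor NF-Y binds. Of 17 members with a promoter in the RefSeq table (GRCm38.p6, 250 bases before to 50 after the start), 15 held it (88.2%), against 38.5% of 11883 retained genes with a promoter. The share was 40.2% among all genes above and 37.5% among all genes below, both near the share of all genes. Antigen presentation genes, which were low in culture, held it in 11 of 15 promoters (73.3%). So did 12 of 13 promoters of the unfolded protein response (92.3%) and 27 of 34 of mitosis (79.4%), lists with no shared genes. The sterol response element TCACNCCAC was found in 1 of the 17 cholesterol promoters (5.88%, against 1.08% of all). Promoters of *Lss*, *Idi1* and *Nsdhl* (chr10:76531355-76531654, chr13:8885356-8885655 and chrX:72918271-72918570) and of *Tap1* and *B2m* (chr17:34187306-34187605 and chr2:122147437-122147736) are shown 5′ to 3′ on the plus strand to let the box and its spacing be seen, with CCAAT or its reverse complement ATTGG in capitals.
Lss: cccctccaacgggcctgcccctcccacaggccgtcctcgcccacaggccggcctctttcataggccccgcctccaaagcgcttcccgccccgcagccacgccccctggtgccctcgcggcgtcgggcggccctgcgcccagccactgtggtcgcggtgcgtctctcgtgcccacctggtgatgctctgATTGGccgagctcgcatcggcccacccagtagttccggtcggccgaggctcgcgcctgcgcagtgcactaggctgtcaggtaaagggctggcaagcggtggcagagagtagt
Idi1: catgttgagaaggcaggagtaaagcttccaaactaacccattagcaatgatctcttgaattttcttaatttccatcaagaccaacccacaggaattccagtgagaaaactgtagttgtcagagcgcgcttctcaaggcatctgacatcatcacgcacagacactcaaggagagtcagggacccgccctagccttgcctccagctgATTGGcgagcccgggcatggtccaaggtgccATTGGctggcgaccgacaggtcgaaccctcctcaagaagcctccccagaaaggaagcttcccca
Nsdhl: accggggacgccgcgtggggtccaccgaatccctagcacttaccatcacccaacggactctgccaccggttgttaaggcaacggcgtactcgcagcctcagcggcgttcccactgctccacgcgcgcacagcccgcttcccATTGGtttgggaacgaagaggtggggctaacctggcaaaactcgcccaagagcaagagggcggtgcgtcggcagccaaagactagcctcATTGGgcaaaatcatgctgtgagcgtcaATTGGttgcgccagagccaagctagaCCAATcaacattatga
Tap1: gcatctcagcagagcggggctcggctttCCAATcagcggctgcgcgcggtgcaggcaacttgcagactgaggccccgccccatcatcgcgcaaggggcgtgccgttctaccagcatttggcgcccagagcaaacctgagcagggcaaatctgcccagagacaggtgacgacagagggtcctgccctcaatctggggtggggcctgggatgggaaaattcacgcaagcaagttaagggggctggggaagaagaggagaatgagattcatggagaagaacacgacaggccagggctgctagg
B2m: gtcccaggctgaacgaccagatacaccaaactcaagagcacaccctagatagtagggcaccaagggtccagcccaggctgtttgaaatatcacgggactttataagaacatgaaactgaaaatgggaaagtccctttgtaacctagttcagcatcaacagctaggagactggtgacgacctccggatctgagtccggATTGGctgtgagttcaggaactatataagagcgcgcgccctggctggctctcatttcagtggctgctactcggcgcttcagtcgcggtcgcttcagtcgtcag

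A share of matrix genes and of the proteases that act on matrix were high in both cultures. Of 34 collagens and matrix proteins 8 lay above all 9 primary libraries (23.5%) and none below. Of 25 genes of pericellular proteolysis 9 lay above (36%) and 1 below. The shares of all retained genes were 10.5% above and 9.68% below. *Fn1*, fibronectin, was at 26.6 to 270.9 CPM in primary libraries (median 127.1), 1521 in mammospheres and 7979 in Comma Dβ (5.32 ± 0.55, adjusted p = 0.000132). *Tnc*, tenascin C, was at 30.5 to 133.3 CPM against 2381 and 624.6, highest in mammospheres. *Col1a1* was at 29.1 to 235 CPM against 834 and 807. *Mmp9*, a gelatinase, was at 1.19 CPM at most in primary cells and at 76.9 and 16.4 in culture (6.29 ± 0.45, adjusted p = 2.96e-05), and its inhibitor *Timp1* was at 12.6 to 33.6 CPM against 262.5 and 215.9. *Plaur*, the urokinase receptor, was the exception, at 102.5 to 245 CPM in primary cells and at 37.4 and 43.2 in culture. Taking the MaSC/basal libraries alone as reference, 8 matrix genes lay above and 21 below. The summed level was 29000 to 33100 CPM in MaSC/basal libraries, 2080 to 4970 in luminal libraries, 14700 in mammospheres and 23700 in Comma Dβ.

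Of 30 lineage transcription factors 5 lay above all 9 primary libraries (16.7%, against 10.5% of all genes) and 2 below (6.67%, against 9.68%). Those above were *Zeb1*, *Zeb2*, *Twist1*, *Twist2* and *Hmga2*, and those below *Stat5a* and *Pgr*. *Zeb1*, a repressor of epithelial genes, was at 1.13 to 4.26 CPM in primary cells and at 20.4 and 55.6 in culture (3.92 ± 0.34, adjusted p = 6.83e-05). *Zeb2* was at 1.16 to 6.13 CPM against 25.6 and 61.9, and *Twist1* at 0.212 to 1.33 against 4.96 and 42.5. *Snai2*, a basal factor related to the Snail repressor, was not among them, with 20.6 and 34.2 CPM between the MaSC/basal (86.8 to 120.2) and luminal (3.49 at most) levels. Of 17 markers of fibroblasts and pericytes 6 lay above (35.3%, against 10.5% of all genes) and 1 below (5.88%, against 9.68%). The 6 were *Pdgfra*, *Pdgfrb*, *Twist2*, *Col1a1*, *Col1a2* and *Col3a1*, so *Twist2* and the 3 collagens are counted here a second time. The edgeR test called 8 of the 17 markers higher and 1 lower, against 22.7% and 14.8% of all genes. The summed level of the markers was 659 to 1740 CPM in primary libraries, 2820 in mammospheres and 4030 in Comma Dβ. Of the defining markers *Pdgfra* (59.0 and 124.3 CPM) and *Pdgfrb* (150.2 and 340.2) were above all primary libraries, at 30.6 and 27.4 at most, whereas *Dcn* was at 98.2 and 91.3 CPM within the primary range of 52.8 to 450.5. Their part in the results on matrix and mesenchymal genes was not tested, and more cells of a type and more RNA per cell cannot be told apart in bulk samples.

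Markers of skeletal muscle, endothelium and fat differed between cultured and primary libraries in part. Of all genes, the edgeR test called 22.7% higher and 14.8% lower. It called 15 of 16 retained skeletal muscle genes higher (24 listed, median log2 fold change 3.84). Of 17 endothelial markers it called 5 lower and 1 higher (median -2.26), and of 7 adipocyte markers 4 lower (-1.89). It called 1 of 11 immune and 1 of 3 erythroid markers lower. Skeletal muscle genes summed to 358 CPM in mammospheres, 23.1 in Comma Dβ and 7.37 to 20.2 in primary libraries. In both cultures 3 of 16 lay above (*Tnni2*, *Myh1* and *Ryr1*; 18.8%, against 10.5% of all genes). *Myog* had 550 reads and *Myod1* 156 in mammospheres and none in Comma Dβ, and neither was retained. Muscle genes with low primary levels could be retained through the cultures alone, and a call does not require both cultures to differ. The 15 calls are thus no separate support for a shared difference. Immune markers summed to 48.7 and 4.24 CPM against 11.3 to 31.9, with *Ptprc* at 12 and 3 reads in the cultures, and none of 11 retained members lay outside on the same side. Endothelial markers summed to 92.5 and 44.8 CPM against 38.2 to 328, with 1 of 17 above (*Flt1*) and 2 below (*Vwf* and *Tek*), and *Pecam1*, *Cdh5* and *Emcn* did not lie outside in both. None of 7 adipocyte and 3 erythroid markers did. Adipocyte markers summed to 100 and 41.6 CPM in culture, both below the 115 to 410 of primary libraries, and erythroid markers to 1.88 and 0.917 CPM against 1.45 to 13.0.

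Some glycolysis and hypoxia genes were high in both cultures. Of 25 genes of glycolysis and glucose uptake 6 lay above (24%) and none below. The shares of all retained genes were 10.5% above and 9.68% below. *Pkm*, which makes pyruvate, was at 425.9 to 747.2 CPM in primary libraries, 3257 in mammospheres and 1667 in Comma Dβ (2.14 ± 0.20, adjusted p = 9.51e-05). *Eno1*, *Pgk1*, *Tpi1*, *Pgam1* and *Aldoa* were the others. Several of these enzymes have many processed pseudogenes, and the handling of reads that match several places is not stated, so their levels are uncertain. The summed level of the list was 3450 to 6040 CPM in primary libraries, 12500 in mammospheres and 4380 in Comma Dβ. Of 21 hypoxia genes 6 lay above (28.6%; 10 with library batch as a block) and 1, *Bhlhe40*, below. Their summed level was 2350 to 3720 CPM in primary libraries, 8830 in mammospheres and 1920 in Comma Dβ, on opposite sides of the primary range. *Bnip3*, a mitochondrial hypoxia target, was at 4.46 to 9.53 CPM in primary cells, 229 in mammospheres and 14.8 in Comma Dβ, so it was higher in the spheres than in the line. *Egln1*, an oxygen-sensing hydroxylase, was at 23.03 to 55.3 CPM against 234.3 and 77.8.

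Proliferation genes showed how the rank rule and the edgeR test part. The test takes both cultures as 1 mean, so a call does not require both of them to differ from primary cells. Of 43 genes of mitosis 41 were called higher by edgeR (against 22.7% of all genes), with a median log2 fold change of 2.44. Yet none had both cultures above all 9 primary libraries. Their summed level was 1710 to 2470 CPM in MaSC/basal libraries, 321 to 418 in luminal libraries, 985 in mammospheres and 5620 in Comma Dβ, so mammospheres lay between the sorted populations. *Mki67*, a proliferation antigen, was at 176.1 to 244.1 CPM in MaSC/basal cells, 32.2 to 43.9 in luminal cells, 114.6 in mammospheres and 563.6 in Comma Dβ (2.31 ± 0.37, adjusted p = 0.00121). Against MaSC/basal libraries alone its log2 fold change was 0.74 and did not pass. Of 45 DNA replication genes 25 were called higher (against 22.7% of all genes), but *Gins3* and *Gins4* were the only 2 members above all 9 libraries (4.44%). Cell cycle regulators had 6 of 34 above (17.6%, against 10.5% of all genes). Among them was the inhibitor *Cdkn2b* (0.413 to 3.51 CPM, 14.3 and 63.0 in culture). *Myc* was the 1 below (153.4 to 433.9 CPM, 46.6 and 102.7). Ribosome biogenesis (0 above and 1 below of 45) and the unfolded protein response (0 and 0 of 16) gave at most 1 shared gene.

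**Figure D3:**
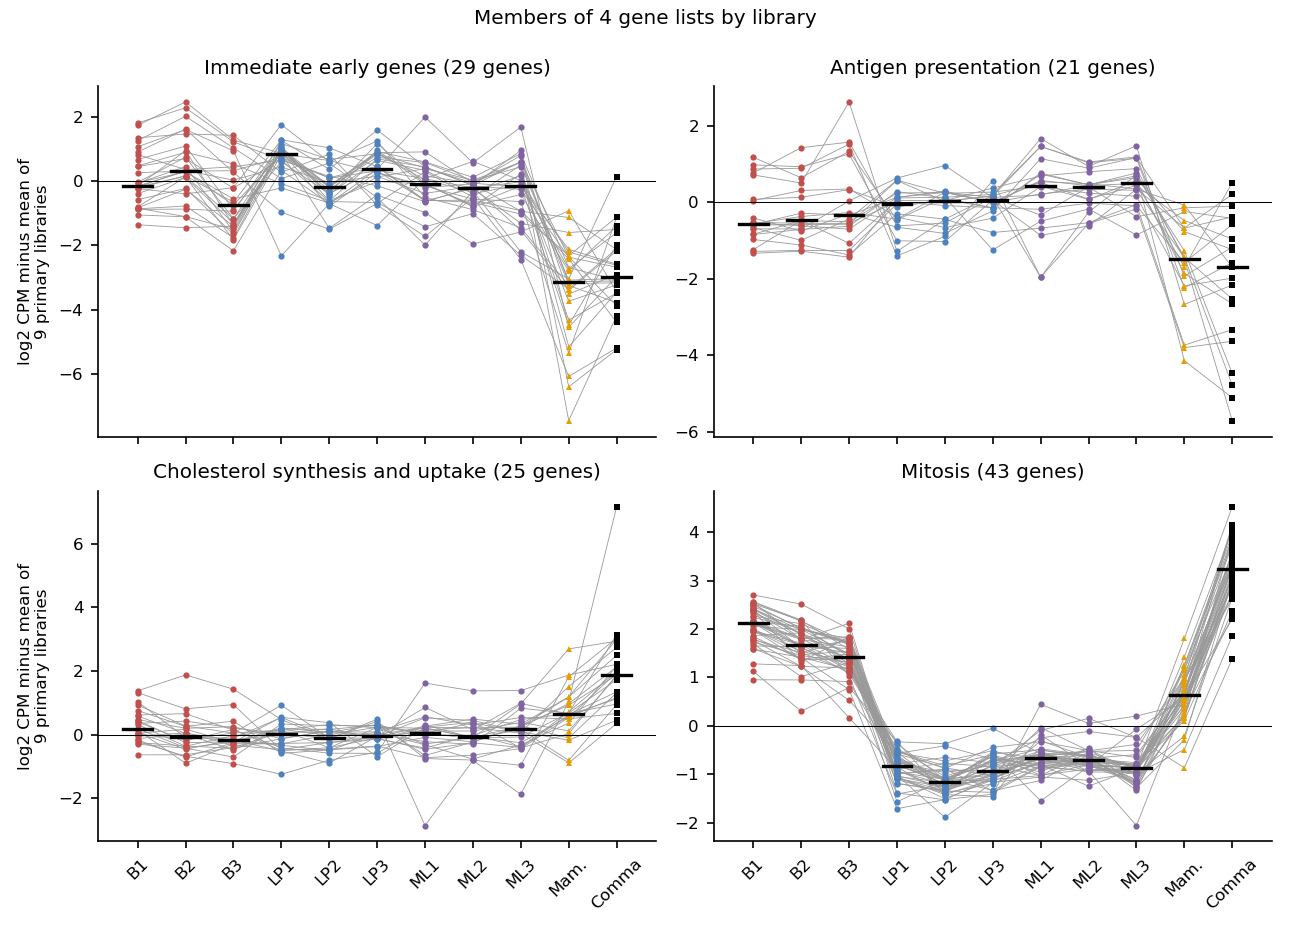
Each point is a retained member of a gene list in 1 library, as log2 CPM minus its mean over the 9 primary libraries (y axis), with grey lines joining a gene's values and black bars the median of the list. B, LP and ML are the sorted replicates, Mam. mammospheres and Comma the Comma Dβ line. Immediate early and antigen presentation genes are low in both cultures, cholesterol genes are higher in Comma Dβ than in mammospheres, and mitosis genes put mammospheres between MaSC/basal and luminal libraries.

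Signalling and metabolic lists with few shared members held single genes with wide gaps. Of 20 chemokines 4 lay below (20%) and 1 above (5%). The shares of all retained genes were 9.68% below and 10.5% above. *Cxcl2*, a neutrophil attractant, was at 18.8 to 598.6 CPM in primary cells and at 6.24 and 0.917 in culture, whereas *Cxcl5*, its relative, was at 0.558 to 2.79 CPM against 31.5 and 31.9, an almost equal level in both cultures. Of 25 genes of the YAP and TAZ pathway, which include the factors and their TEAD partners as well as targets, 4 lay above (16%) and 1 below (4%). *Ankrd1*, a widely used target of this pathway, was at 0.131 to 9.42 CPM against 91.1 and 77.9 (6.07 ± 0.49, adjusted p = 5.06e-05), and *Myof*, a membrane repair protein, at 75.7 to 236.9 against 461.9 and 782.3. Of 22 genes of fatty acid synthesis 1 lay above and 1 below (4.55% each). The desaturase *Scd2* was the former, at 59.9 to 181.5 CPM against 1092 and 2009 (3.80 ± 0.20, adjusted p = 1.11e-05).

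Most genes linked to FOXO factors and nutrient control did not lie outside on the same side in both cultures. Of 24 FOXO-linked genes of growth arrest 5 lay below (20.8%, against 9.68% of all genes) and 1 above (4.17%, against 10.5%). Their median log2 fold change was -0.12, and the edgeR test called 7 lower, 3 higher and 14 neither. *Pdk4*, which restrains pyruvate oxidation, was at 52.4 to 597.5 CPM in primary cells and at 25.1 and 17.2 in culture, and *Irs2*, an insulin receptor substrate, at 87.6 to 645.6 against 24.7 and 13.3. *Smad7*, a feedback inhibitor from the list of TGF-beta and BMP genes, was at 119.6 to 371.1 CPM against 55.8 and 39.1. Among 27 genes of amino acid synthesis and transport and targets of Atf4, 2 lay above and 2 below (7.41% each). *Psat1*, of serine synthesis, was at 216.5 and 358.2 CPM in culture against 120.7 at most in primary cells, and *Atf4*, the factor that induces it, was at 152.3 and 195 CPM against 298 at least.

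Defence and stress genes were found on both sides. Of 25 genes of the NRF2 and glutathione response 6 lay below (24%) and 3 above (12%). Of all retained genes 9.68% lay below and 10.5% above, so the share above was near that of all genes. *Osgin1* was at 66.8 to 247.4 CPM in primary cells and at 17.7 and 14.1 in culture, and *Srxn1*, a peroxiredoxin reductase, at 191.6 to 927 against 73.0 and 60.0, while *Gsta4*, a glutathione transferase, was at 10.5 to 26.3 CPM against 160.6 and 73.6. Cytosolic heat shock genes had 4 of 15 below (26.7%; 7 with library batch as a block), among them the co-chaperones *Dnajb1* (192.4 to 630.1 CPM against 81.1 and 74.0) and *Bag3*, while *Hsph1* lay above by the rank rule and was not called (1.23 ± 0.52, adjusted p = 0.086). It was called without LP replicate 3 (1.47) or ML replicate 3 (1.58) and under the batch block (1.15).

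**Figure D4:**
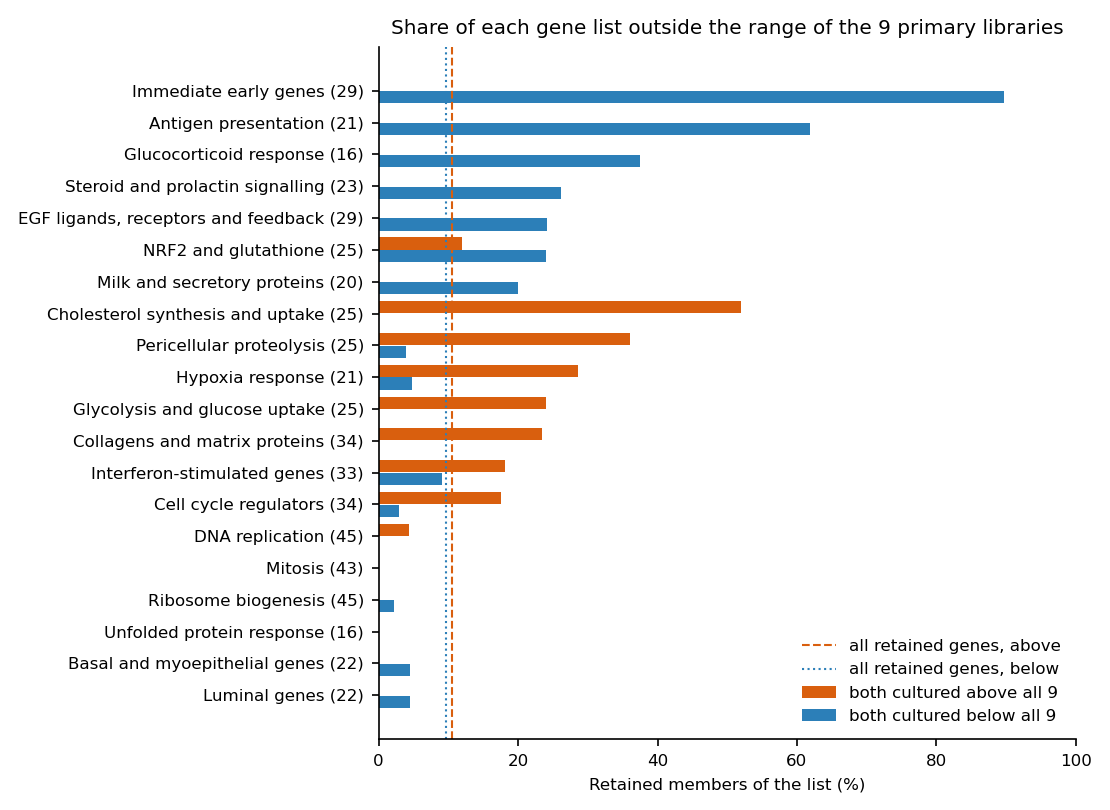
Percentage of retained members of 20 gene lists (number retained in parentheses) with both cultures above (orange) or below (blue) all 9 primary libraries. The dashed and dotted lines mark the 10.5% and 9.68% of all retained genes that lay above and below. Immediate early genes reach 89.7% below and cholesterol genes 52% above, while mitosis genes have none on either side.

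All 3 MaSC/basal libraries lay above all 6 luminal libraries for 25.2% of retained genes and below them for 23.3%. Among the genes above in culture these shares were 18.9% and 13.8%, and among those below 15% and 21.3%. A gene that differs widely between the sorted populations has a wider range for the cultures to clear, and these shares were not tested. The cultures also parted from each other. Mammospheres lay above and Comma Dβ below all 9 primary libraries for 413 genes (2.6%), and the reverse held for 436 (2.75%), against 3209 genes outside on the same side.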

How the data were processed

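Sorted MaSC/basal, LP and ML cells, mammospheres and Comma Dβ cells were profiled by RNA-seq with single-end reads of 100 bases. Raw counts of 27179 Entrez genes per library were deposited by the authors, who mapped the reads to mm10 (GRCm38) by Rsubread and summarised them by featureCounts. Use of strand and of reads matching several places is not given in the sources used here, so antisense overlaps, paralogs and pseudogenes are uncertain. Symbols were matched to RefSeq for 25275 genes and to GENCODE for 18, and 1886 had none. Gene coordinates and promoters are RefSeq, GRCm38.p6. The submitters' processing notes also name CASAVA 1.8.0.

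Groups came from the sample labels. The members, gene lists and tests were chosen with earlier results of these data known. CPM are TMM-scaled, and a prior count of 2 was added before taking log2. R 4.3.3, edgeR 4.0.16, limma 3.58.1, DESeq2 1.42.0 and Python were used. edgeR's quasi-likelihood test fitted 4 means (MaSC/basal, LP, ML and both cultures) to all 11 libraries, with Benjamini-Hochberg adjustment over 15881 genes and calls at 0.05. The SE is the log2 fold change divided by the root of the F statistic. The methods call the 3 samples of each sorted population independent, but no animals are named, and each culture is 1 library. Replicate pairs differed by far more than sampling noise (chi-square per degree of freedom 52.9 to 177). Named genes were the 12 with the widest gap in each direction with at least 5 CPM in every library of the higher side, members of each list by gap with exceptions, lineage and other cell markers, and the 3 widest opposite-side genes each way. *Snai2*, genes at the edge of the rank rule and some list members beyond the first 4 by gap were named after their values were seen.

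Library batch, given in the labels, pairs libraries. Deviations of same-batch libraries from their population means correlated at 0.0168 to 0.505, except MaSC/basal replicate 2 with LP replicate 2 (-0.12). The cultured against primary test was tried on simulated data (15497 genes, of which 200 were shifted by 3 on the log2 scale), where 194 of these were called, with 8 false calls. The simulated data had no differences among populations, between the cultures or between batches. These counts therefore do not give the error rate in the real data. At the shallowest depth 0.5 CPM is 9.36 reads, and 3 reads are 0.0399 to 0.16 CPM, a limit that covers counting error only. Alternatives were other scaling, filters, priors, models, tests and references, library batch as a block, comparison within batch, a minimum gap and leaving out each library. Some members of the lists are not reported here.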

Additional observations from a re-analysis of the deposited data

Results flagged for a closer look

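The cultures lay on opposite sides of all 9 primary libraries for 413 genes with mammospheres above and Comma Dβ below, and for 436 with the reverse. With 1 library each, the difference between the cultures was not tested. The widest of the first kind were *Cd40*, *Col15a1* and *Atp12a*. *Col15a1*, a basement membrane collagen, was at 190.3 CPM in mammospheres, 0.611 in Comma Dβ and 3.25 to 33.4 in primary libraries. *Atp12a*, a proton pump subunit, was at 65.5 and 0.0679 CPM against 0.526 to 4.86. *Cd40*, a TNF receptor family member, was at 8.57 CPM in mammospheres and had no reads in Comma Dβ, against 0.374 to 1.67. The widest of the second kind were *Gbp4*, *9630013D21Rik* and *Thbs3*. *Gbp4*, an interferon-inducible GTPase, was at 0.516 CPM in mammospheres, 27.8 in Comma Dβ and 1.3 to 4.61 in primary libraries. *Thbs3*, a thrombospondin, was at 2.27 and 23.2 CPM against 5.94 to 11.1.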

How the results depend on the processing

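Genes above and below all 9 primary libraries numbered 1671 and 1538. Without TMM scaling they were 2778 and 922, with MaSC/basal libraries alone as reference 3966 and 4104, and with a gap of at least 1 290 and 297. Within batch, 2389 lay below. Leaving out each primary library gave 1682 to 1810 above and 1549 to 1636 below, and without MaSC/basal replicate 1, the library with p53 in its name, 1739 and 1624. With library batch as replicate block they were 2013 and 1922. Of genes called higher and lower (3604 and 2355), the block left 2584 and 2064, no TMM scaling gave 5605 higher, and a mean for each culture gave 4222 lower. Leaving out a library gave 3198 to 4209 higher and 2046 to 4180 lower, the largest counts being those without mammospheres. Under DESeq2 size factors, without TMM scaling and under the block, immediate early genes below numbered 26, 23 and 26, antigen presentation genes below 13, 10 and 14, and cholesterol genes above 13, 15 and 14. Over 161 named genes and 2093 refitted values, 2001 stayed on their side of the threshold without a called value changing sign, 74 lost the call, 12 gained it and 6 turned. The block cost *Krt5* (2.81), *Col3a1* (2.63), *Irf7*, *Ccnd3*, *Cd24a*, *Pecam1*, *Col15a1*, *Atp12a*, *Gbp4* and *9630013D21Rik* their calls, and *Egr2* (-2.32) and *Hsph1* gained one. With MaSC/basal libraries alone as reference, *B2m* (-0.59), *H2-D1* (-1.58), *Wnt4* (-0.68), *Csn2* (-3.67), *Lalba* (-2.06) and *Mki67* (0.74) were among the genes no longer called. Against the same reference the log2 fold change turned for *Krt5* (-2.04), *Krt14* (-1.88), *Acta2* (-4.34), *Itgb1* (-0.12), *Snai2* (-1.99) and *Cd24a* (0.13). Neither culture was repeated, so no value separates a culture from its 1 library.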
